A study of Mus musculus with 3 samples.

Results

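The Skint genes encode a family of immunoglobulin-domain membrane proteins related to the butyrophilins. The 9 members described here, Skint1, Skint2, Skint3, Skint4, Skint5, Skint6, Skint7, Skint9 and Skint10, were taken by symbol from the 31053 genes listed in single-cell count matrices of mouse skin, and all 9 were found. Skin of C57BL/6 mice, 7 weeks after birth, gave the 3 libraries of the series, 1 for each of the agents metformin, Shi-Bi-Man and control. Its design text names a natural product, Shi-Bi-Man, and hair growth. Dose, route, duration, sex and the number of animals behind a library are not stated in the labels, and the libraries share strain, age and tissue. The metformin and control libraries were analysed, and the expression of the Shi-Bi-Man library was not analysed here.

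In the mouse, Skint1 is needed for the thymic maturation of the γδ T cells that later line the epidermis, the dendritic epidermal T cells, which carry a receptor built from the Tcrg-V5 and Trdv4 segments. These T cells sit between keratinocytes, extend processes towards them and respond to keratinocyte stress and wounding. The epidermis is layered: basal cells divide, suprabasal cells have left the basement membrane and make Krt1 and Krt10, and granular cells make the cornified envelope. The upper part of the hair follicle is a continuation of this epithelium, whereas the hair matrix, inner root sheath and stem or germ cells below form the hair. Skint3 and Skint9 have been linked in mice to the exchange between keratinocytes and epidermal T cells in wounds. For most other members no receptor or partner is established.

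The metformin library held 12092 barcodes and 92341365 UMIs (unique molecular identifiers, which count captured RNA molecules), and the control library held 12108 barcodes and 71345558 UMIs. After filtering, 10778 metformin cells and 10990 control cells were kept, with medians of 6621 and 4158.5 UMIs. Keratinocyte-like cells were 6605 (61.3%) of the kept cells in the metformin library and 4260 (38.8%) in the control library, and there they were about equally deep, with medians of 8519 and 9413.5 UMIs. The 2 libraries shared 41 barcodes, of which 35 were among the kept cells and 6 fell in the same cell class. With 1 library per agent there is no replicate, so no test between agents and no p-value is given. Counts of genes past 2-fold are descriptions and not calls of changed genes. Levels are UMIs per 1000000 UMIs of a class (CPM), each interval is at 95%, and all intervals cover counting error only, not differences between animals or cells.

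All 9 members lie on chromosome 4 of GRCm38, between positions 111972923 and 113999503, a span of 2.03 Mb. In order along the chromosome they are Skint7, Skint1, Skint4, Skint3, Skint9, Skint2, Skint10, Skint6 and Skint5, with Skint8 and Skint11, which are not members, on either side. The first of them, Skint7, occupies positions 111972923 to 111988223 on the plus strand, and the last, Skint5, occupies 113477891 to 113999503 on the minus strand. An exon of Skint6 overlaps Gm12823, which is annotated as an antisense gene. Because the family arose by duplication, the last 500 bases of each member's protein-coding transcripts, the part read by a 3′ assay, were cut into 50-base words. These words were searched for over the whole length of the transcripts of every other gene. Skint6 shared 5.42% of its words with Skint5, Skint5 shared 3.65% with Skint6 and Skint7 shared 1.84% with Skint8 and Gm44141. The other 6 members shared at most 0.877%.

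The promoter windows (250 bases before to 50 after the start, RefSeq, GRCm38.p6) are shown for 6 members. Skint5 with Skint6 and Skint9 with Skint10 are the pairs most alike in expression further on, and Skint1 and Skint3 are shown for a run of bases they share with Skint5 and Skint6. Capitals mark, in Skint9 and Skint10, the runs of at least 12 bases that both hold in the same order. In the other 4 genes they mark only the run TAGTACTTGAGTAAT, or the 14 bases of it that Skint3 holds, and longer runs shared by some of these genes are left in lower case. These groups were formed after the sequences were seen.
Skint5: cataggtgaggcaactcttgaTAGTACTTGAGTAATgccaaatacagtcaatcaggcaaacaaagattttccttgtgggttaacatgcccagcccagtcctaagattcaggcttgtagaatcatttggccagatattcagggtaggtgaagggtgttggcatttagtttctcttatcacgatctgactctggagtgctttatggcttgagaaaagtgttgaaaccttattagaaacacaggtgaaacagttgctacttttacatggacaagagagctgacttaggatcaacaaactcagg
Skint6: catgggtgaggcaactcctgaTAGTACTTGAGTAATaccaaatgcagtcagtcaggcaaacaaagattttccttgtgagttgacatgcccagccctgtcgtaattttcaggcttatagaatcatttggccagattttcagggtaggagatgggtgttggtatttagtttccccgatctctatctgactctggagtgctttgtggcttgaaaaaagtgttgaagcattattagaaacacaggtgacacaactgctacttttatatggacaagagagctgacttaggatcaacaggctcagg
Skint1: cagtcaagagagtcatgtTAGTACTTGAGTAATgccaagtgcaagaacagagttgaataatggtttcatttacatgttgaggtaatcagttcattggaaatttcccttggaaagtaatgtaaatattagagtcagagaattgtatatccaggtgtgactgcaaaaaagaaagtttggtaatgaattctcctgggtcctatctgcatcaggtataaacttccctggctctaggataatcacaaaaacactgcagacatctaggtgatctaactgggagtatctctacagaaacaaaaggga
Skint3: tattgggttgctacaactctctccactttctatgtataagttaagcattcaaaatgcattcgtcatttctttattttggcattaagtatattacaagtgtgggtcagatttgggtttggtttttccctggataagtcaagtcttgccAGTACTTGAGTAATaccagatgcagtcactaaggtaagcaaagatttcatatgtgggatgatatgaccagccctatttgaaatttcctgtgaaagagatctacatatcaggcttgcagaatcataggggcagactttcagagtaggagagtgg
Skint9: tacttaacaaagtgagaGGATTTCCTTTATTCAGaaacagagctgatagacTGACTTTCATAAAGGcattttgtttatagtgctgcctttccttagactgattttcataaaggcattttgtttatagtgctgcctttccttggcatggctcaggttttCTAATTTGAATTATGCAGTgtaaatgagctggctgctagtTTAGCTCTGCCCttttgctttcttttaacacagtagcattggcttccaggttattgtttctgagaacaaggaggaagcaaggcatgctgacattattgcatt
Skint10: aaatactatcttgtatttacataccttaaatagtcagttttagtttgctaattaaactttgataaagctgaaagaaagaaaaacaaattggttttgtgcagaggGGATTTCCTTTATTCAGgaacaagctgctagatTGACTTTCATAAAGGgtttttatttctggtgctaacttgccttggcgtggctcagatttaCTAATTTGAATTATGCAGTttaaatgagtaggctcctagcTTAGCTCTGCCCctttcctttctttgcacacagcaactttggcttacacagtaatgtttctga

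The windows of Skint5 and Skint6 were 89.7% identical over 300 aligned positions. Those of Skint9 and Skint10 were 56.9% identical, with a shared run of 19 bases, and the other 34 pairs lay between 42.8% and 55.1%. Words of the run in capitals in the first 4 genes occurred in 6 of 32851 listed promoters (0.0183%), which were those 4 genes, the second promoter listed for Skint4, and Gm46517. On either strand, a TATA box (TATAAA) was found in 5 of the 9 members and in 13.6% of all promoters. No member held an AP-1 word (TGANTCA, 7.81% of promoters), a GATA word (AGATAA, 11.2%) or a Grainyhead-like word (AACCNGTT, 2.09%). An E-box (CANNTG) stood in 6 members against 72.3% of promoters, a CCAAT box in 4 against 37.4%, and an RBPJ word (TTCCCA) in Skint4 alone against 25.6%. The presence or absence of letters in these windows is a description and not evidence on any factor.

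Skint RNA belonged to keratinocytes in both libraries. Of all Skint UMIs in kept cells, 95.5% of 8804 in the metformin library and 94.85% of 13525 in the control library were in keratinocyte-like cells, and single members ranged from 90.6% to 98.1% and from 91.8% to 97.7%. Fibroblast-like cells, which served as the background, had 2.32 CPM of the 9 genes summed in the metformin library and 2.56 CPM in the control library. The classes bore the markers they were named from: each of the 8 suprabasal, 12 granular and 7 upper follicle markers was at least 2-fold higher there than in the other keratinocyte-like cells in both libraries. Of the 8 basal markers, 6 were at least 2-fold higher in basal epidermis-like cells in each library. All 8 had a higher level there in metformin, and 7 of 8 in control.

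Within the epidermis the family was higher in the more differentiated layers. The summed level was 79.9 CPM in basal, 637 CPM in suprabasal and 1132 CPM in granular epidermis-like cells of the metformin library (1971, 627 and 26 cells). In the control library it was 61.8, 568 and 1106 CPM (1256, 1154 and 119 cells). A cluster between the basal and suprabasal cells, led by Clca3a2, Ifi202b, Ly6d and Dmkn and left unnamed, lay between them at 145 CPM in metformin and 113 CPM in control. Upper hair follicle-like cells stood at 476 CPM in metformin and 445 CPM in control (306 and 376 cells). The intervals of these classes did not overlap within a library, so the order granular, suprabasal, upper follicle, Clca3a2 cluster was the same in both libraries and larger than the counting error.

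Suprabasal epidermis-like cells held 7.97 times (7.48 to 8.50) the summed level of basal cells in the metformin library and 9.19 times (8.49 to 9.97) in the control library, log2 ratios of 3.00 and 3.20. With cells limited to 300 to 3000 genes both log2 ratios were 2.13, in metformin that of the library clustered alone was 1.69, and the ratio stayed above 1 in every setting tried. In the metformin library 7 of the 8 members with at least 20 counts were at least 2-fold higher in suprabasal cells, beside 10.7% of 11125 genes, and their median log2 ratio was 5.62 against −0.0889 over all genes. In the control library 7 of 9 members were at least 2-fold higher, beside 13.6% of 11177 genes, with a median log2 ratio of 5.71 against −0.0784. Not 1 member was at least 2-fold lower in either library, beside 16.6% of genes in metformin and 17.3% in control. From suprabasal to granular cells the family parted: 4 of 9 members were at least 2-fold higher in the metformin library (11.1% of genes) and 5 of 9 in the control library (10.4%), whereas Skint1 and Skint7 were at least 2-fold lower in both (20.5% and 29.3% of genes). In both libraries 6 of 9 members had a granular over suprabasal ratio above 1, beside 41.7% of genes in metformin and 34.7% in control. In upper hair follicle-like against basal cells, 6 of 7 members were at least 2-fold higher in both libraries (10.4% and 11.1% of genes), and Skint7 was lower (15.3% and 14.0%). The limit of 20 counts was on both sums together, for members and all genes alike. Skint5, Skint6, Skint9 and Skint10, and Skint2 in control, had fewer basal counts than that and passed through suprabasal cells. Skint2, Skint9 and Skint10 likewise passed through the upper follicle. These counts and medians are thus descriptions and not tests.

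**Figure D1:**
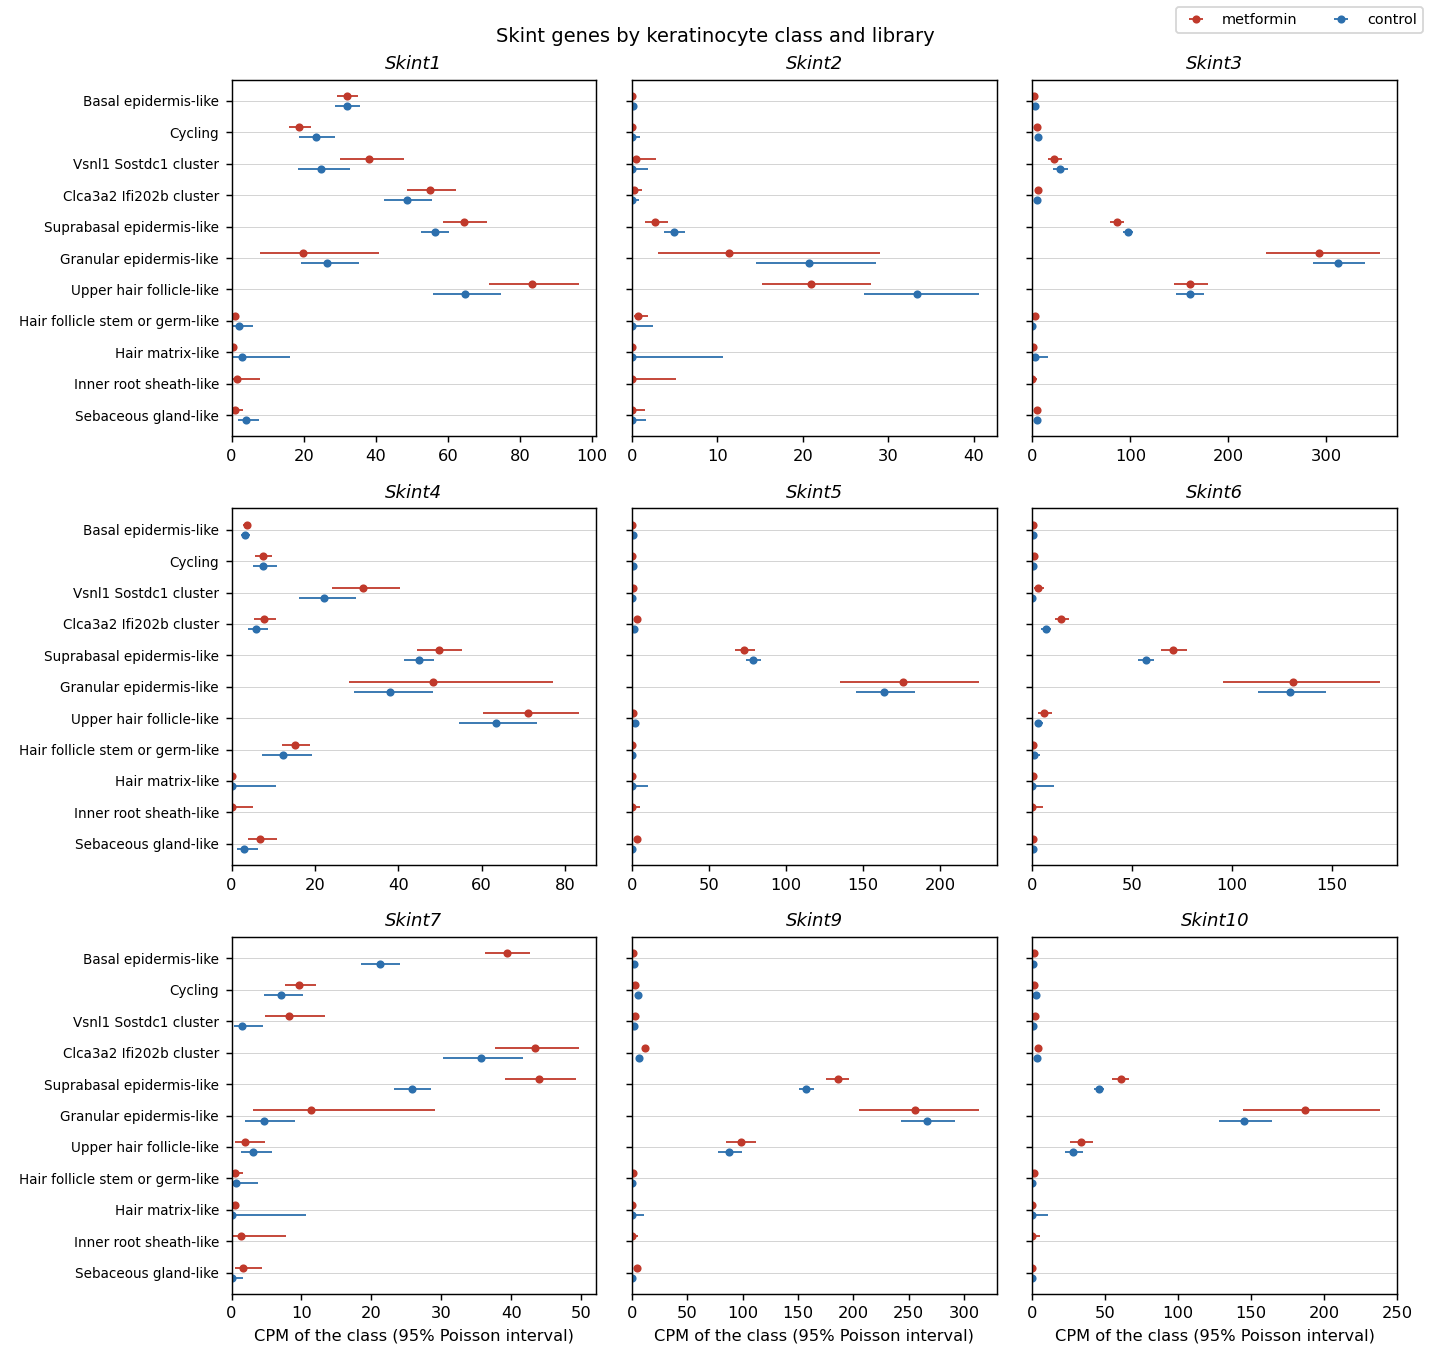
Level of each of the 9 Skint genes (CPM of the class, x axis) in each keratinocyte class with at least 20 cells (y axis), in metformin (red) and control (blue); points are class sums and bars are 95% Poisson intervals, and each panel has its own x scale. Skint7 and Skint1 are the members with clear basal levels, 39.3 and 32.1 CPM in metformin and 21.2 and 32.1 CPM in control, and the granular class leads for Skint3, Skint5, Skint6, Skint9 and Skint10.

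Skint1 was the most widely spread member. Its level was 83.2 CPM in upper follicle, 64.5 CPM in suprabasal, 32.1 CPM in basal and 19.9 CPM in granular cells of the metformin library. The control library had 64.8, 56.4, 32.1 and 26.4 CPM in the same classes. Upper follicle and suprabasal cells did not differ beyond their intervals in the control library, where the suprabasal over upper follicle ratio was 0.870 (0.742 to 1.02), whereas in metformin it was 0.774 (0.649 to 0.927). Cycling cells held 18.8 CPM of Skint1 in metformin and 23.3 CPM in control. In a follicle cluster left unnamed and led by Vsnl1 and Sostdc1 it had 38.2 CPM in metformin and 24.8 CPM in control. In stem or germ-like cells the gene was close to absent, with 5 UMIs in 690 cells of the metformin library and 3 UMIs in 220 of the control library.

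Skint7, whose function is not established, was the member of the lower layers. It measured 39.3 CPM in basal, 43.3 CPM in Clca3a2 cluster and 44.0 CPM in suprabasal cells of the metformin library, 3 levels with overlapping intervals. The control library had 21.2, 35.6 and 25.8 CPM in these classes. In granular cells it was near its floor, with 4 UMIs in metformin and 8 in control, and upper follicle cells had 1.86 CPM in metformin and 3.04 CPM in control. Skint7 was thus a gene of the layers between follicles: its upper follicle over basal ratio was 0.0473 (0.0128 to 0.122) in metformin and 0.143 (0.0647 to 0.277) in control.

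The basal layer was not uniform for Skint7. Reclustering the keratinocyte-like cells without any Skint gene gave a basal cluster led by Slc6a4 and Il1r2 (1014 metformin and 629 control cells) and another led by Stfa3 and Dlk2 (856 and 571 cells). Skint7 stood at 63.2 CPM against 17.8 CPM in these clusters in the metformin library, a ratio of 3.55 (2.92 to 4.35), and at 36.8 CPM against 7.54 CPM in the control library, a ratio of 4.88 (3.46 to 7.00). For Skint1 the same ratio was 1.22 (1.02 to 1.46) in metformin and 1.57 (1.26 to 1.956) in control. Among suprabasal clusters, Skint7 was highest in the one led by Gsta2 and Mt4, at 83.5 CPM in metformin and 74.2 CPM in control. It was lowest in the one led by Serpinb12 and Serpinb3b, at 24.0 CPM in metformin and 16.99 CPM in control. Skint9 was highest of the suprabasal clusters in the Serpinb12 cluster, at 311 CPM in metformin and 227 CPM in control. These clusters were singled out after their Skint7 levels were seen.

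**Figure D2:**
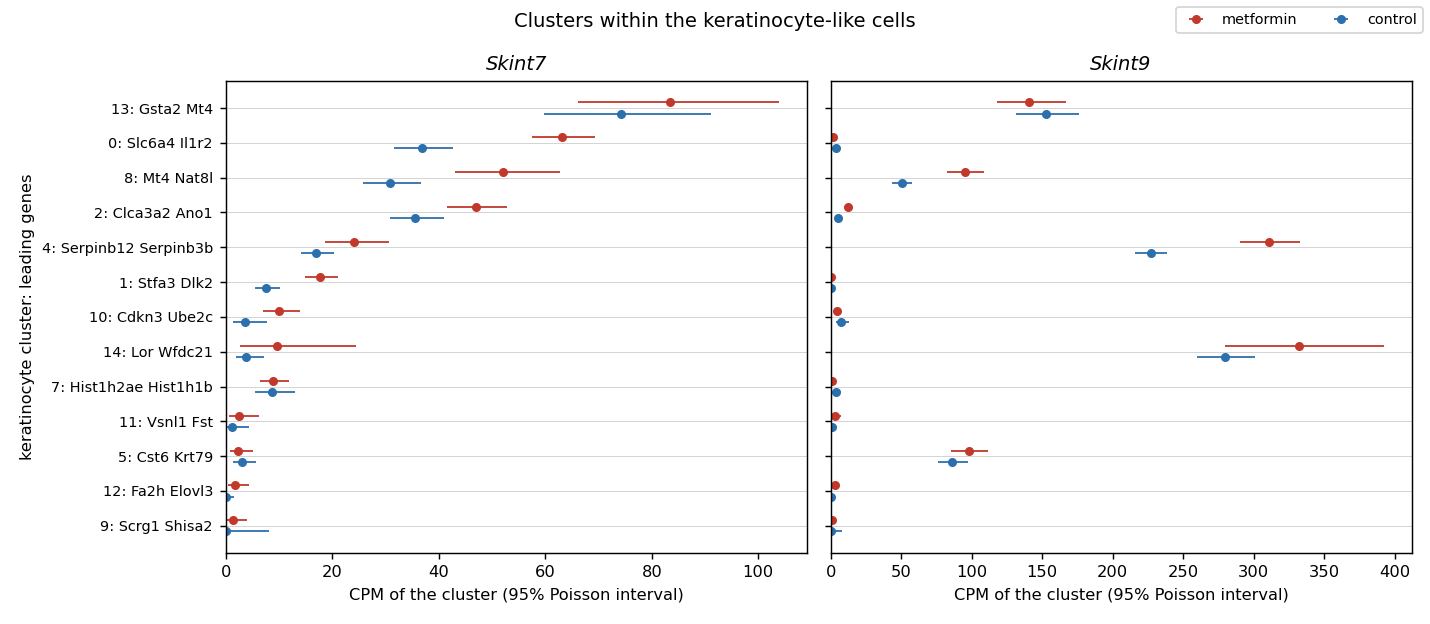
Skint7 (left) and Skint9 (right) in clusters within the keratinocyte-like cells that hold at least 20 cells of each library; the x axis is CPM of the cluster with 95% Poisson intervals, the y axis names each cluster by number and leading genes, and metformin is red and control blue. Skint7 is highest in the Gsta2, Slc6a4 and Mt4 clusters in metformin, and near 0 in the follicle clusters. In control cluster 2 (35.6 CPM) lies above the Mt4 cluster (30.9 CPM) for Skint7. Skint9 peaks in the Serpinb12 and Lor clusters.

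Skint5 and Skint6 were restricted to the differentiated interfollicular layers. Skint5 had 176 CPM in granular, 72.9 CPM in suprabasal and 0.326 CPM in basal cells of the metformin library, and 164, 78.8 and 0.373 CPM in the control library. Skint6 had 130.5, 70.7 and 0.391 CPM in these classes in metformin and 129, 56.8 and 0.0933 CPM in control. Both were low in the upper follicle, where Skint5 gave 2 UMIs in metformin and 6 in control, and Skint6 gave 12 and 8. The suprabasal over upper follicle ratio of Skint5 was 78.4 (21.6 to 649) in metformin and 38.9 (17.8 to 106) in control, and that of Skint6 was 12.7 (7.18 to 24.7) and 21.04 (10.6 to 48.9).

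Skint3, Skint9 and Skint10 were shared by the differentiated epidermis and the upper follicle, and were nearly absent from basal cells. Skint9 had 255 CPM in granular, 186 CPM in suprabasal, 98.1 CPM in upper follicle and 1.11 CPM in basal cells of the metformin library, and 267, 158, 87.7 and 1.68 CPM in the control library. Skint10 followed the same order, with 187, 60.5, 33.0 and 1.11 CPM in metformin and 145, 45.6, 28.0 and 0.373 CPM in control. Skint3 differed from them in that the upper follicle came second: it had 292 CPM in granular, 161 CPM in upper follicle, 86.5 CPM in suprabasal and 1.95 CPM in basal cells of the metformin library, and 312, 160, 97.1 and 2.61 CPM in the control library. Neighbouring classes in each of these orders had intervals that did not overlap.

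Skint2 and Skint4 had their highest levels in the upper follicle. Skint2 measured 20.9 CPM in upper follicle and 2.67 CPM in suprabasal cells of the metformin library, against 33.4 and 4.89 CPM in the control library, and basal cells gave 0 UMIs in metformin and 1 in control. Granular cells had 11.4 CPM of Skint2 (3.09 to 29.1) in metformin and 20.7 CPM (14.5 to 28.6) in control, levels whose intervals overlapped those of the upper follicle. A basal count of 0 in metformin allows up to 3 UMIs in the class. Skint4 stood at 71.1 CPM in upper follicle, 49.8 CPM in suprabasal and 48.2 CPM in granular cells of the metformin library, and at 63.4, 44.9 and 37.9 CPM in control. In metformin the granular interval of Skint4 (28.1 to 77.2) overlapped that of the upper follicle (60.3 to 83.35), and in control these intervals did not overlap. Suprabasal and granular cells did not differ beyond their intervals for Skint4 in either library. In the Vsnl1 and Sostdc1 cluster it had 31.5 CPM in metformin and 22.3 CPM in control, where Skint1 and Skint3 were also found, Skint3 at 22.2 CPM in metformin and 28.4 CPM in control. In stem or germ-like cells it had 15.2 CPM in metformin and 12.3 CPM in control (84 and 18 UMIs), which was 4.16 times (2.93 to 5.94) and 3.76 times (2.01 to 6.82) its basal level.

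**Figure D3:**
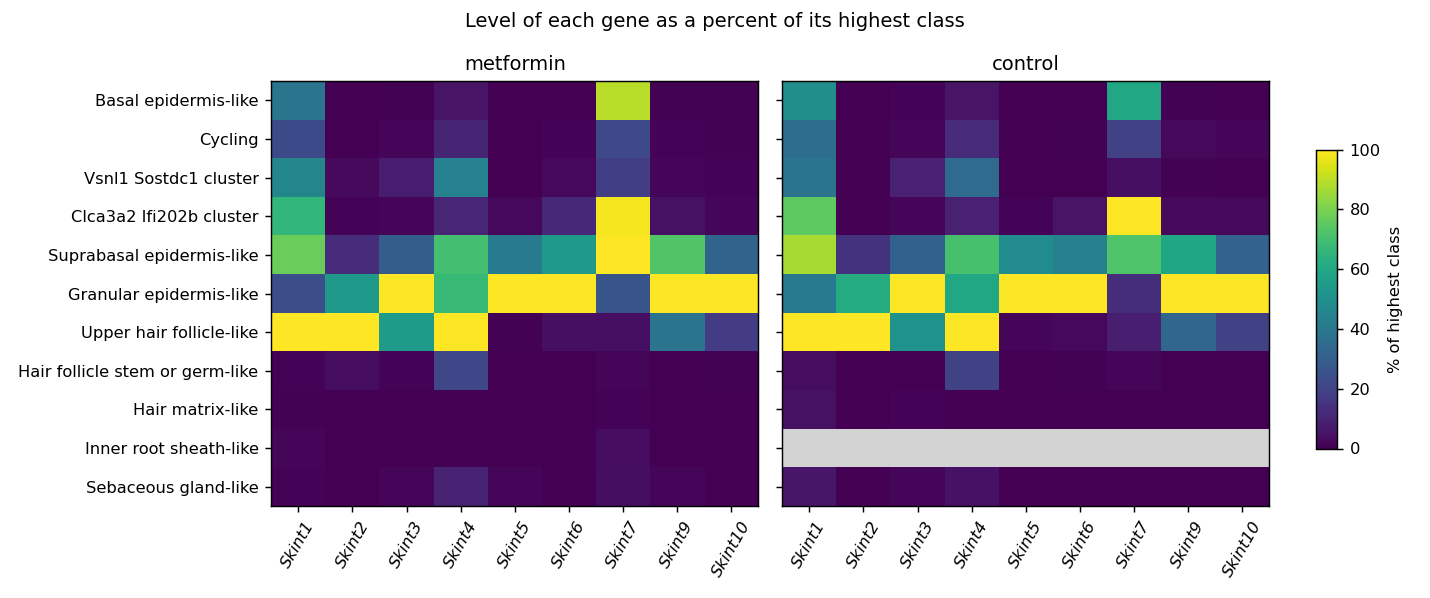
Level of each Skint gene (columns) in each keratinocyte class (rows) as a percent of the highest class of that gene, in metformin (left) and control (right); grey cells are classes with fewer than 20 cells. Each gene has the same highest class in both libraries except Skint7, which is highest in suprabasal cells in metformin and in the Clca3a2 cluster in control: Skint1 and Skint7 stand out in the basal row, the granular row is highest for Skint3, Skint5, Skint6, Skint9 and Skint10, and the upper follicle row for Skint1, Skint2 and Skint4.

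Along the chromosome the members with little follicle RNA lay at the ends. Skint7 at the left end had suprabasal over upper follicle ratios of 23.7 in metformin and 8.49 in control, and Skint6 and Skint5 at the right end had those given above. The 6 members between them, Skint1, Skint4, Skint3, Skint9, Skint2 and Skint10, had ratios from 0.128 to 1.89 in metformin and from 0.146 to 1.80 in control. This order was noticed after the levels were seen and is a description of 9 neighbouring genes.

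Single suprabasal cells carried several members. Suprabasal cells had a median of 3 of the 9 genes with a UMI in both libraries, granular cells 5, upper follicle cells 2 and basal cells 0. Cells with at least 3 members were 61.7% of suprabasal cells in metformin and 59.9% in control, against 0.558% and 0.478% of basal cells. At a fixed depth of 1500 UMIs per cell, a UMI of any member was found in 54.0% of 624 suprabasal, 45.2% of 301 upper follicle and 11.9% of 1966 basal cells of the metformin library, leaving out 3, 5 and 5 shallower cells. In the control library it was found in 49.2% of 1152, 44.9% of 370 and 9.89% of 1254, leaving out 2, 6 and 2. Fibroblast-like cells at the same depth gave 0.171% in metformin and 0.137% in control. Without thinning the shares were 93.5%, 87.3% and 40.5% in metformin and 91.6%, 85.6% and 36.4% in control, at median depths of 10491, 6625 and 7202 UMIs in metformin and 12041, 7417 and 7890.5 UMIs in control, beside 3614.5 and 2715 UMIs in fibroblast-like cells.

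The pairs with the most identical promoter windows were also the most alike in level. Over 47 points, each a class in a library, Pearson's r of log2(CPM + 1) was 0.935 for Skint5 and Skint6 and 0.929 for Skint9 and Skint10, the highest of the 36 pairs, and 0.225 for Skint2 and Skint7, the lowest. Beyond these 2 pairs the rankings parted. The next most identical windows, those of Skint2 and Skint6 (55.1%), went with r = 0.695. The next highest r, 0.892 for Skint6 and Skint10, went with 46.5% identity. The points share libraries, depth and the many classes near 0, so r is a description. The genes outside the family with the pattern most like the summed members were Pla2g2f (r = 0.933), a secreted phospholipase of the upper epidermis, Abca12 (0.903), the lipid transporter of lamellar granules, Klk11 (0.902), a serine protease, and Krt80 (0.901), an epithelial keratin. Cstb, Oas1f, Orm1, Pkib, Dapl1 and 5730559C18Rik followed with r from 0.890 to 0.870. Pla2g2f had 1209 CPM in granular, 260 CPM in suprabasal, 114 CPM in upper follicle and 31.5 CPM in basal cells of the metformin library, and 1337, 313, 178 and 26.6 CPM in the control library.

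Between the agents, with the classes as named here, the sum over all keratinocytes and the basal and suprabasal layers taken alone pointed in opposite directions. Over all keratinocyte-like cells the family had 132 CPM in metformin and 293 CPM in control, a ratio of 0.449 (0.437 to 0.462). In that sum 6 of 9 members were at least 2-fold lower in metformin (4.96% of 14241 genes) and 0 were at least 2-fold higher (12.5%), 1 member had a ratio above 1 (64.2% of genes), and the median log2 ratio was −1.31 against 0.17 over all genes, a shift of the scale to be held against every keratinocyte-wide ratio here. Skint7 was the exception, at 19.1 CPM in metformin and 18.2 CPM in control (ratio 1.05, 0.963 to 1.15). Keratinocyte-like cells of the metformin library included 1409 hair matrix-like cells against 29 in the control library, and these held 27 Skint UMIs in metformin and 2 in control. Suprabasal cells numbered 627 in metformin and 1154 in control, and granular cells 26 and 119. Leaving out the hair matrix and inner root sheath-like cells, a choice made after these values were seen, gave 178 CPM in metformin and 295 CPM in control (ratio 0.604, 0.588 to 0.621). With each class weighted by its share of UMIs in the control library, also chosen afterwards, the levels were 327 CPM in metformin and 293 CPM in control, a ratio of 1.12.

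Within layers, with the classes as named here, the family level was similar to or moderately higher in metformin. The suprabasal ratio did not keep its direction in every setting, as given below. In basal cells the ratio of the sums was 1.29 (1.18 to 1.42), in the Clca3a2 cluster 1.29 (1.14 to 1.45) and in suprabasal cells 1.12 (1.08 to 1.17). Granular cells (1.02, 0.916 to 1.14), upper follicle cells (1.07, 0.983 to 1.16) and cycling cells (0.856, 0.717 to 1.02) had intervals that included 1. In suprabasal cells 6 of 9 members had a ratio above 1 (51.3% of 10547 genes), 0 were at least 2-fold higher (1.55%) and 0 at least 2-fold lower (1.56%). In upper follicle cells 6 of 7 measured members were above 1 (49.7% of 8944 genes), with Skint6 at least 2-fold higher on 12 UMIs in metformin and 8 in control (1.49%) and 0 at least 2-fold lower (2.37%). In granular cells 4 of 8 measured members were above 1 (51.9% of 6215 genes), and 0 were at least 2-fold higher (7.30%) or lower (5.92%). The 26 granular cells of the metformin library also held 1362 CPM of the basal keratin Krt14, against 89.0 CPM in the control library, and its part in the granular ratios was not tested.

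Skint7 carried most of the basal difference. Its basal level was 39.3 CPM in metformin and 21.2 CPM in control (604 and 227 UMIs, ratio 1.86, 1.59 to 2.17), whereas Skint1, the other abundant basal member, had a ratio of 0.999 (0.868 to 1.15). Skint10, on 17 UMIs in metformin and 4 in control, was the only one of 6 measured members at least 2-fold higher in basal cells (1.24% of 11233 genes), 0 were at least 2-fold lower (1.23%), and 3 had a ratio above 1 (53.7%). The ratio of Skint7 was also above 1 in both basal clusters, 1.72 (1.44 to 2.06) in the Slc6a4 and 2.36 (1.66 to 3.42) in the Stfa3 cluster. In suprabasal cells it was 1.71 (1.46 to 1.995). At 1500 UMIs per cell, 6.36% of basal cells in metformin and 3.11% in control had a Skint7 UMI, against 1 of 1751 and 0 of 3639 fibroblast-like cells. Skint2 ran the other way, with a ratio of 0.626 (0.430 to 0.8996) in the upper follicle on 45 UMIs in metformin and 99 in control.

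**Figure D4:**
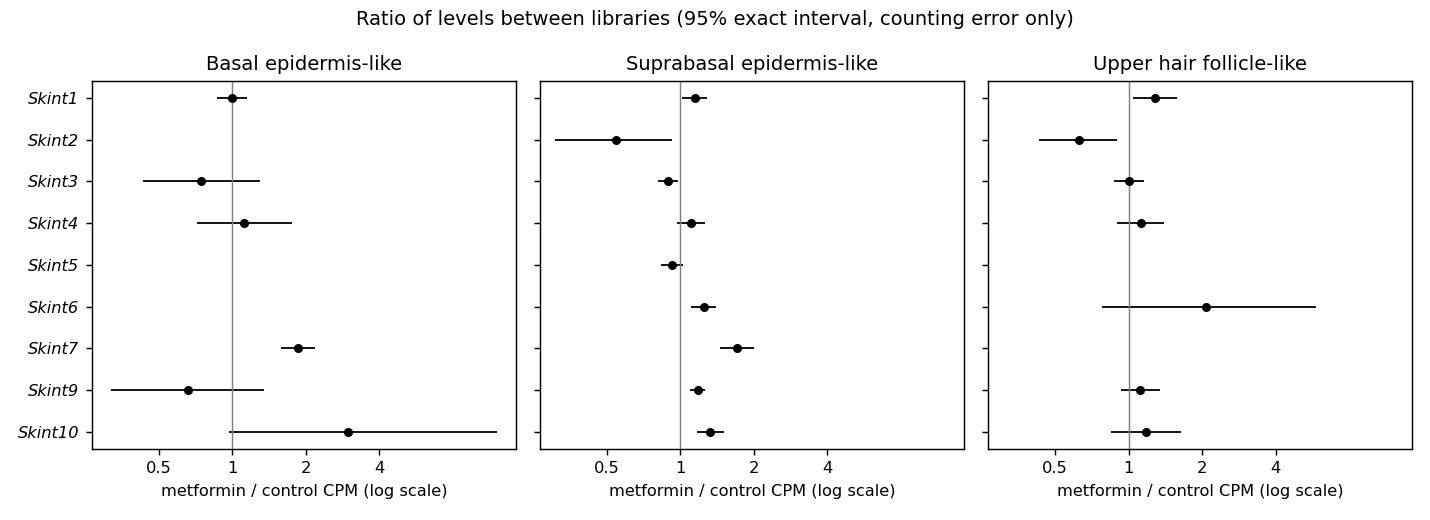
Metformin over control ratio of CPM (x axis, log scale) for each Skint gene with at least 20 counts (y axis) in basal, suprabasal and upper hair follicle-like cells; points are ratios, bars are 95% exact intervals of counting error, and the grey line is 1. Skint7 lies at 1.86 in basal and 1.71 in suprabasal cells, Skint1 at 0.999 in basal cells, and Skint2 at 0.626 in upper follicle cells.

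The suprabasal ratio of the whole family depended on which cells were given that name. It was 1.12 as the classes stand, but each library clustered on its own gave a log2 ratio of −1.15 and a mitochondrial limit of 20% gave −0.084. When the metformin library was clustered alone, its cells with Clca3a2 were named suprabasal, whereas those of the control library stayed unnamed, and at the 20% limit the Clca3a2 cluster of both libraries took that name. Inside finer clusters the ratio of the family was 1.24 (1.18 to 1.30) in the Serpinb12, 1.37 (1.25 to 1.51) in the Mt4 and Nat8l, 1.12 (1.01 to 1.25) in the Gsta2 and 1.26 (1.15 to 1.38) in the Lor cluster. The largest single ratio with at least 20 counts in these 4 clusters was that of Skint10 in the Gsta2 cluster, 57.4 CPM in metformin and 23.1 CPM in control (2.49, 1.55 to 4.07).

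Outside the keratinocytes, Skint3 was found in dendritic, Langerhans and macrophage-like cells, and 1 dendritic cell-like cluster held few UMIs of the other members. Skint3 had 51 UMIs in 259 metformin cells and 51 UMIs in 365 control cells of a dendritic cell-like cluster led by Mgl2 and Cd209a, which is 47.9 CPM (35.7 to 63.0) and 32.0 CPM (23.9 to 42.1). The same cluster held 2 UMIs of the other 8 members together in metformin and 4 in control, whereas in keratinocyte-like cells Skint3 made up 1197 of 8408 Skint UMIs in metformin and 2528 of 12828 in control. Of the cells with a Skint3 UMI, 25 of 37 in metformin and 26 of 44 in control had no UMI of Krt5, Krt14, Krt1 or Krt10. Of all cells of the cluster, 171 of 259 in metformin and 224 of 365 in control had none, a similar share. All 8 basal markers were detected in this cluster in metformin and 7 of 8 in control, summing to 472 and 105 CPM, beside 15408 and 17107 CPM in keratinocyte-like cells. All 8 suprabasal markers were detected in both libraries, summing to 303 CPM in metformin and 207 CPM in control, beside 11084 and 33149 CPM in keratinocyte-like cells. A second dendritic cell-like cluster, with Xcr1, held 1 Skint3 UMI in each library. At 1500 UMIs per cell, 4.26% of dendritic cell-like cells in metformin and 4.15% in control had a Skint3 UMI, against 0.0571% and 0.0275% of fibroblast-like cells. The cluster was singled out after its Skint3 level was seen.

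Langerhans cell-like cells, the dendritic cells of the epidermis, had 19.4 CPM of Skint3 and 18.3 CPM of Skint1 in metformin and 15.8 and 14.8 CPM in control. A Skint3 UMI was found in 13.48% of them in metformin and 16.84% in control, beside 14.29% and 12.05% of the Mgl2 and Cd209a cluster. In the Langerhans cell-like cells the 8 basal markers summed to 8193 CPM in metformin and 11029 CPM in control. Keratinocyte RNA was thus abundant there, and its part in the Skint levels was not tested. Macrophage-like cells had 16.25 CPM of Skint3 (3.35 to 47.5) on 3 UMIs in 87 metformin cells. In control they had 8.61 CPM (2.35 to 22.0) on 4 UMIs in 230 cells. Their basal markers summed to 2952 CPM in metformin and 3039 CPM in control. Epidermal γδ T cell-like cells gave 11 Skint UMIs in 382 cells of the metformin library and 8 in 416 cells of the control library, beside 1215 and 1265 CPM of the basal markers.

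**Figure D5:**
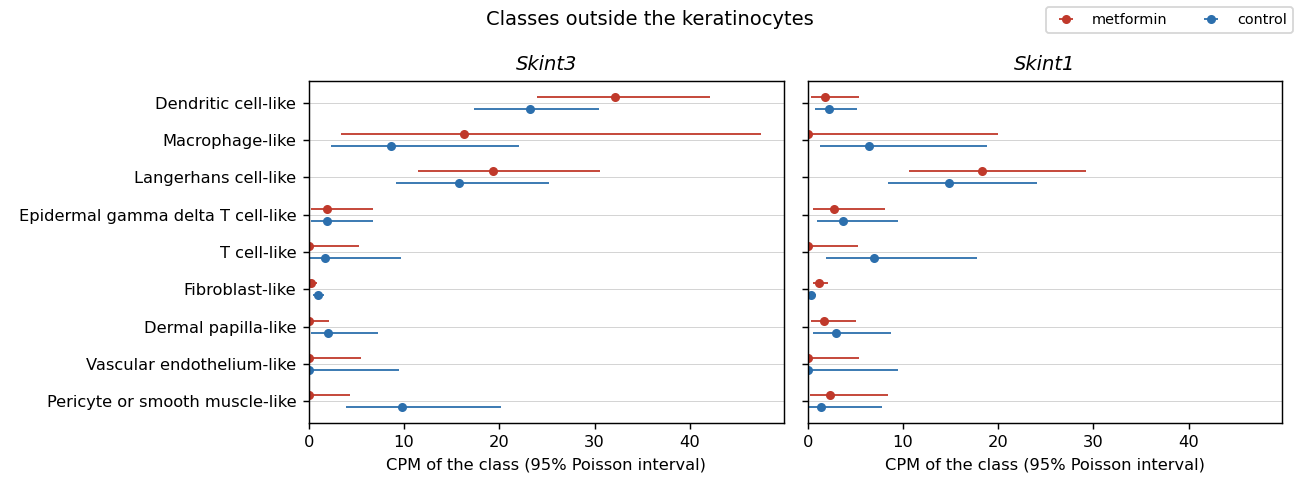
Skint3 (left) and Skint1 (right) in classes outside the keratinocytes; the x axis is CPM of the class with 95% Poisson intervals, the y axis lists the classes, and metformin is red and control blue. Skint3 is at 32.1 CPM in metformin and 23.2 CPM in control in dendritic cell-like cells as a whole, where Skint1 stays at 1.85 and 2.24 CPM.

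Epidermal γδ T cells were found in both libraries. T cell-like cells numbered 682 in metformin and 628 in control, of which 382 and 416 were epidermal γδ T cell-like, led by Trdc, Cd7 and Tcrg-C1. A UMI of Trdv4 or Tcrg-V5 was found in 338 of the 682 T cells in metformin (49.6%) and in 366 of the 628 in control (58.3%), a difference of −8.72 points (−14.1 to −3.32), beside Trdv4 UMIs in 0.207% and 0.117% of fibroblast-like cells. T cells had medians of 2243 UMIs in metformin and 2298.5 UMIs in control. At 1500 UMIs per cell it was found in 262 of 592 cells in metformin and 281 of 558 in control, a difference of −6.10 points (−11.8 to −0.33). Within the epidermal γδ class Trdv4 stood at 815 CPM in metformin and 1005 CPM in control. At 1500 UMIs per cell, a Trdv4 UMI was found in 67.2% (62.05 to 72.1) of that class in metformin and 69.5% (64.5 to 74.1) in control, with overlapping intervals. A list of genes for epidermal γδ T cells was measured over all T cell-like cells, not inside the epidermal γδ class. Of its 25 measured genes, 0 were at least 2-fold higher in metformin (2.77% of 8960 genes), 1 was at least 2-fold lower (2.33%) and 9 had a ratio above 1 (52.6%). The lower one was Gzmc, a granzyme, at 629 CPM in metformin and 1523 CPM in control (ratio 0.413, 0.385 to 0.443). Areg, a growth factor for epithelium, had a ratio of 0.654 (0.616 to 0.695), Tnfrsf9, a costimulatory receptor, 0.726 (0.653 to 0.807) and Ahr, a sensor of dietary and microbial ligands, 0.732 (0.593 to 0.903). Receptor genes of other T cells lay slightly higher in metformin over all T cell-like cells, with Trac and Trbc2 at 1.29 and Tcrg-C4 at 1.24. Epidermal γδ T cell-like cells were 382 of the 682 in metformin and 416 of the 628 in control. The part of this mix in the pooled ratios was not tested.

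A list of other keratinocyte signals to these T cells was measured alongside. Of its 21 measured genes, 4 were at least 2-fold lower (4.96% of genes) and 1 at least 2-fold higher (12.5%) in metformin over all keratinocyte-like cells, and 7 had a ratio above 1 (64.2%). The median log2 ratio was −0.26, against −1.31 for the Skint genes and 0.17 over all genes. Ccl20, a chemokine for Ccr6-bearing cells, was lower in basal, suprabasal and upper follicle cells: 34.8 CPM in metformin and 149 CPM in control in basal cells (ratio 0.233, 0.211 to 0.257), and 30.5 and 131 CPM in suprabasal cells (0.234, 0.201 to 0.270). In upper follicle cells its ratio was 0.345 (0.245 to 0.477). Tslp, an epithelial cytokine, had a ratio of 0.333 (0.291 to 0.381) in basal and 0.464 (0.360 to 0.592) in suprabasal cells. Il18 was 0.139 over all keratinocyte-like cells, yet 4.05 (1.55 to 13.4) in basal cells on 29 UMIs in metformin and 5 in control. Tgfb2 was the gene at least 2-fold higher, at 2.55 (1.99 to 3.30). Of 24 genes of keratinocyte differentiation, 13 were at least 2-fold lower over all keratinocyte-like cells (4.96% of genes), led by Hrnr (0.0653) and Lor (0.0876), and 0 were at least 2-fold higher (12.5%). Inside the suprabasal class 1 was at least 2-fold lower, Lor (1.56% of genes), and 1 at least 2-fold higher, Krt15 (1.55%). In granular cells 6 of 23 were at least 2-fold higher in metformin (7.30% of genes) and 1 at least 2-fold lower (5.92%). The list also holds basal genes, among them Krt5, Krt14, Krt15 and Col17a1. Krt14, whose granular levels are given above, was one of the 6, so this count does not measure differentiation. The butyrophilin relatives of the Skint genes were close to absent: of 8 found in the files, not 1 reached 20 counts in keratinocyte-like cells, with Btn1a1 at 2 UMIs, Btnl9 at 3 and Btnl10 at 1 in metformin and all 3 at 0 in control.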

How the data were processed

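The authors deposited raw counts of UMIs per gene and barcode from droplet 3′ single-cell libraries, made with Cell Ranger 4.0.0 per the file headers and, by the submitters' processing notes, GRCm38. Extraction text in the labels mentions another species, but the gene identifiers are those of mouse. The article supplied describes another experiment, so only its writing style was used.

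Cells with at least 800 UMIs, at least 300 genes and at most 8% mitochondrial counts were kept, with no upper limit on genes. Doublets were called with Scrublet (expected rate 8%, scanpy 1.11.5) and removed. Cells were clustered on 2000 variable genes and 30 principal components without the Skint genes (20 neighbours, at least 3 shared, Leiden resolution 1, leidenalg 0.10.2), and keratinocyte-like cells were clustered again. Clusters took a name from at least 3 markers and are called X-like; 85 metformin and 125 control cells with mixed markers were left out. From the deposited counts, class sums were expressed as CPM with exact Poisson intervals, ratios with exact conditional binomial intervals, shares with Clopper-Pearson intervals and their difference with Newcombe intervals. Ratios over many genes needed at least 20 counts in both sums together. On simulated counts for the suprabasal comparison, 95.8% of intervals held the true fold (10547 genes, 200 changed). Those counts were drawn from Poisson distributions, without differences between cells or animals, so this checks the calculation only. Coordinates are from GENCODE M21.

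The members and gene lists were chosen with earlier results of these data known, as was the filter without an upper gene limit. The naming rules were revised after clusters and first Skint levels were seen. Named genes are the 9 members, from each list 2 to 4 genes of largest ratio, and the 10 genes most alike in pattern (at least 200 counts). Tgfb2, Krt15, the butyrophilin counts and all values of list genes by layer were chosen after they were seen. Alternatives were other filters, clusterings, scalings, cell weights and depths.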

Additional observations from a re-analysis of the deposited data

How the results depend on the processing

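No paired analysis was possible because each agent has 1 library, and no replicate could be left out for the same reason. Values here are log2 ratios unless said otherwise. The keratinocyte-wide metformin over control ratio was −1.15 and became −0.97 as a mean over cells, −1.33 scaled by the median gene, −0.94 with cells thinned to 1500 UMIs, −0.62 with 300 to 3000 genes and, in settings added after the data were seen, −0.73 without hair matrix and inner root sheath-like cells and 0.16 with classes weighted as in control, where its sign turned. The basal ratio of 0.37 stayed above 0 in every setting tried. The suprabasal ratio of 0.17 became 0.30 with 300 to 3000 genes, 0.0062 at resolution 2, −0.084 at a mitochondrial limit of 20% and −1.15 when each library was clustered alone. In the last 3 a cluster with Clca3a2 carried the suprabasal name, in separate clustering in the metformin library alone. The suprabasal over basal ratio of 3.00 in metformin became 2.86 as a mean over cells, 2.82 thinned, 2.13 with 300 to 3000 genes, 2.47 at 20% mitochondrial counts, 2.77 with doublets kept, 1.69 clustered alone and 2.46 at resolution 2. That of 3.20 in control became 3.05, 2.97, 2.13, 2.90, 2.90 and 2.82 under the same settings except clustering alone. Over basal, suprabasal and upper follicle cells, member and class pairs with a ratio above 1 were 15 of 22. Beside them stood 53.7%, 51.3% and 49.7% of genes in these classes. With each library clustered alone 7 pairs were above 1, out of a total not given here. Suprabasal ratios of single members turned sign for Skint1 (−0.024), Skint6 (−0.89), Skint9 (−1.65) and Skint10 (−1.64) with each library clustered alone, for Skint9 (−0.10) at 20% mitochondrial counts and for Skint3 (0.035) with 300 to 3000 genes. Skint7 kept its sign in basal cells (0.62 to 1.16) and in suprabasal cells (0.53 to 0.81) under all settings run. Genes past 2-fold between the agents in suprabasal cells were 329 of 10547 with at least 20 counts. They were 1194 with at least 5 counts and 2758 with at least 1 count, limits that admit more genes, whose totals are not given here. The share of T cells with a Trdv4 or Tcrg-V5 UMI stayed lower in metformin throughout. The cause of the other shifts was not tested.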

Other observations

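The 2 Skint genes that flank the members also differed between layers. Skint11, beyond Skint5 at the right end, had 326 CPM in granular, 148 CPM in suprabasal, 26.4 CPM in basal and 7.44 CPM in upper follicle cells of the metformin library, and 466, 166, 28.4 and 7.09 CPM in the control library. Its suprabasal over upper follicle ratio was 19.8 (12.2 to 34.8) in metformin and 23.4 (15.2 to 37.8) in control, on the same side of 1 as those of Skint5 and Skint6. Skint8, beyond Skint7 at the left end, was a follicle gene instead, with 35.8 CPM in upper follicle and 13.8 CPM in suprabasal cells of the metformin library and 34.4 and 13.1 CPM in the control library. Its ratio was 0.385 (0.282 to 0.528) in metformin and 0.381 (0.297 to 0.490) in control, on the other side of 1 from that of Skint7.

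In the unnamed follicle cluster led by Vsnl1 and Sostdc1, Skint7 had 16 UMIs in metformin and 3 in control, and Skint1 had 38.2 CPM in metformin and 24.8 CPM in control (ratio 1.54, 1.06 to 2.25). In the Clca3a2 cluster Skint6 had 14.5 CPM in metformin and 6.62 CPM in control (ratio 2.18, 1.40 to 3.49).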
